A study of Mus musculus with 12 samples.

Results

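The diet comparison in sham-operated mouse hearts set a feed without branched-chain amino acids (leucine, isoleucine and valine, abbreviated BCAA) against a feed that contained them. It used 6 of the 12 libraries of the study, the 3 of the BCAA-free sham group and the 3 of the control sham group, and 15596 of the 15613 genes in the table that holds these 2 groups, those with a mean of at least 10 normalised reads (reads divided by the size factor of their library, as the authors deposited them). The animals were male C57Bl/6J mice, 12 weeks old, and RNA came from the heart. BCAA-free sham mice ate a feed with all BCAA removed and with 1% propionate added, from 4 days before a sham operation until the heart was taken 1 week after it. Control sham mice had the same operation and timing on a feed with BCAA at the amounts of ordinary chow, and it too held 1% propionate, so the short-chain fatty acid was common to both groups. The other 6 libraries came from mice on the same 2 feeds after transverse aortic constriction (TAC), surgery that tightens the aortic arch and loads the left ventricle with pressure, and serve here only to ask whether the diet difference was the same after both operations. No group without propionate and no group without surgery was analysed here. Whether each library was a different mouse is not labelled. The p-values below thus rest on library-to-library spread, which may be technical.

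Animals cannot make BCAA. In muscle, including heart muscle, a transaminase turns them into branched-chain ketoacids, the branched-chain ketoacid dehydrogenase commits these to breakdown in the mitochondrion, and isoleucine and valine end as propionyl-CoA, the same intermediate that fed propionate yields. Leucine also acts as a signal that switches on the growth kinase mTORC1, while a shortage of amino acids activates the kinase GCN2 and, through it, the transcription factor ATF4. The heart holds muscle cells, endothelium, fibroblasts that make the collagen scaffold, smooth muscle and resident macrophages, and a measurement on the whole organ averages over all of them.

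Read totals recovered from the normalised values came to 35926008, 38979122 and 37018595 in BCAA-free sham 1, 2 and 3, against 29925796, 30962777 and 34961685 in control sham 1, 2 and 3, so depth moved with diet, and its part in the results was not tested. The first principal component held 40.6% of the variance and separated the diets, with scores of 0.128, 0.0976 and 0.108 in the BCAA-free libraries, against -0.119, -0.169 and -0.0454 in the controls. Control sham 3 lay nearest to the BCAA-free libraries on it and stood apart on the second component (-0.166), which held 19.4%. All 20 cardiomyocyte markers were measured, and their summed level was 3916190 to 4165570 normalised reads in BCAA-free and 3889240 to 4109730 in control libraries, while 6 of 7 lung and thyroid markers were not listed. BCAA-free sham 1 carried Ucp1, the brown fat uncoupling protein, at 239.6 normalised reads, against 0.859 and 0.945 in the other two BCAA-free libraries and 0, 14.1 and 0 in the controls, and also the highest levels of Rn7sk, Rmrp and Rpph1, products of RNA polymerase III that do not code for protein. Results that rest on control sham 3 or BCAA-free sham 1 are therefore given without them as well.

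Hearts on the BCAA-free diet had less RNA from collagen and basement membrane genes, from interferon-stimulated and antigen presentation genes and from macrophage genes, and more from Klf2, Ptgds, Myh11 and a few T cell and fat cell genes at low levels. Among genes that break down BCAA, 1 of 9 of the first steps and 0 of 16 of the distal steps passed the test. Of 30 genes that answer amino acid shortage through ATF4 1 passed, where 2.81% of all genes did. In all, 438 of 15596 genes (2.81%) passed limma on log2 of the value plus 4 with an adjusted p under 0.05, of which 163 (1.05%) were higher and 275 (1.76%) lower on the BCAA-free diet. Differences are given on that log2 scale, which understates those of genes with few reads, with ± for the standard error. Most were small: 28 of the higher and 40 of the lower genes differed at least 2-fold, the median difference was 0.43 among the higher genes and -0.55 among the lower, and over all genes the median absolute difference was 0.13. Whole-organ RNA cannot tell fewer cells of a type from less RNA in each cell. The 3 libraries of one diet lay wholly above or below those of the other for each of the 438 genes, as they did for 23.2% of all genes tested. The count changed with the library left out, and was 99, 68 and 88 without BCAA-free sham 1, 2 and 3, and 362, 283 and 1019 without control sham 1, 2 and 3. A fit with 1 library fewer has less power to call a gene, so a lost call, here and below, does not mean a lost difference. How much of each change in count came from that was not tested. None of the 97 called genes among those named changed sign when a library was left out. With control sham 3 left out, 416 of the 438 were still called, and 59 were called whichever library was left out.

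The largest rises among called genes of known name with a mean of at least 50 included those of Tcf7, Plin1, Susd5, Ptgds, Itgb7, Cdo1, Klf2, Gimap3, Cfd, Car3 and Npas2, with log2 differences of 1.02 to 1.61. Ptgds encodes the lipocalin-type synthase of prostaglandin D2. It measured 33052, 23676 and 26524 normalised reads in the BCAA-free libraries, against 14677, 10414 and 12071 in the controls (1.16 ± 0.13, adjusted p = 0.00339). The lowest BCAA-free library exceeded the highest control by a wide margin. Cdo1, cysteine dioxygenase, which opens the path to taurine, had 229.95, 177 and 166 normalised reads on the BCAA-free diet and 88.2, 78.2 and 89.3 on the control diet (1.12 ± 0.16, adjusted p = 0.00646). The largest falls were those of Top2a, Nav3, Sez6l2, Ret, Papln, H2-Q6, H2-Q5, Ifi44, Ifit3, Ifit3b, Rtn4r and H2-Q7, with log2 differences of -1.54 to -1.09. Ret, the receptor tyrosine kinase for the glial-derived neurotrophic factor family, had 109, 79.1 and 80.4 normalised reads in BCAA-free libraries, against 241, 265 and 206 in control libraries (-1.38 ± 0.17, adjusted p = 0.00354). Nav3, a neuron navigator protein, had 77.9, 90.2 and 72.8 against 186, 289.9 and 187 (-1.39 ± 0.19, adjusted p = 0.0052), and Rtn4r, a receptor of the axon growth inhibitor Nogo, 70.2, 64.5 and 71.9 against 145, 154 and 169 (-1.13 ± 0.15, adjusted p = 0.00516), with BCAA-free libraries first. Ptgds, Cdo1, Ret, Nav3, Rtn4r, Klf2 and Ifit3 passed whichever library was left out (adjusted p at most 0.0456). The other 16 of these 23 genes did not pass without at least 1 library (adjusted p = 0.0537 to 0.182): all 16 failed without BCAA-free sham 2, all but Itgb7 and Ifit3b without BCAA-free sham 1, all but Cfd, Car3 and Ifit3b without BCAA-free sham 3, Npas2 and Top2a without control sham 1, and Susd5, Car3, Npas2, Top2a, H2-Q5, Ifi44 and H2-Q7 without control sham 2.

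**Figure D1:**
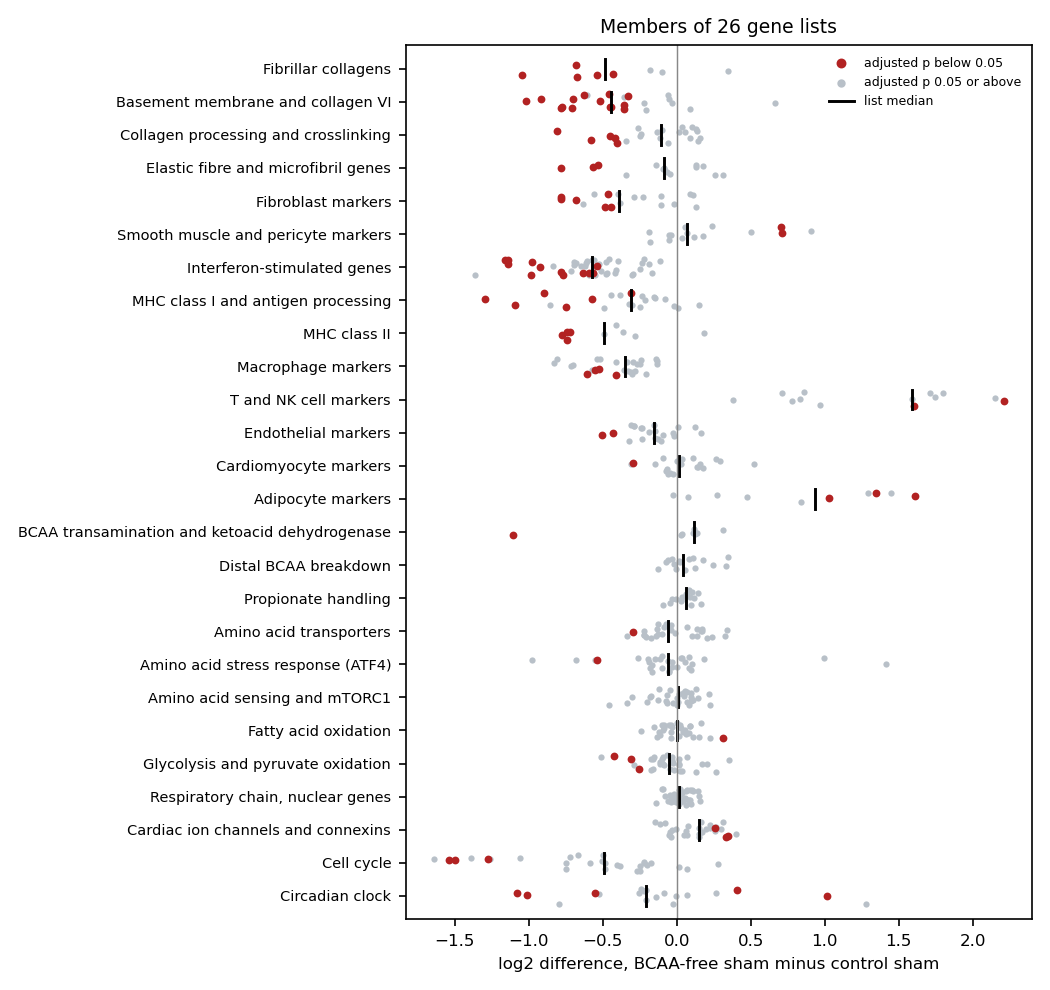
Each point is 1 measured gene of a list, placed by its log2 difference (BCAA-free sham minus control sham, horizontal axis) in the row of its list; red points passed an adjusted p of 0.05 and black bars mark list medians. The medians of the fibrillar collagen, basement membrane, interferon and macrophage lists lie left of 0, that of T and NK cell markers lies at 1.59, and those of the fatty acid oxidation, glycolysis and respiratory chain lists lie within 0.1 of 0.

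The comparison asked first what removal of BCAA did to the genes that use them. Of 9 genes of transamination and the ketoacid dehydrogenase complex, 1 fell and 0 rose, and the list median was 0.12, beside 0.0021 over all genes. The gene that fell was Bcat1, the cytosolic transaminase, with 22.1, 18.9 and 30.3 normalised reads in BCAA-free libraries and 61.5, 59.7 and 45.1 in control libraries (-1.11 ± 0.25, adjusted p = 0.0418). Its groups did not overlap, but its reads were few. The call held without control sham 3 only and was lost without each of the other libraries (adjusted p = 0.085 to 0.149). Bcat2, the mitochondrial transaminase of muscle, measured 3936, 3648 and 3986 normalised reads in BCAA-free libraries and 3255, 3423 and 4029.6 in control libraries (0.12 ± 0.079, adjusted p = 0.476), with groups that overlapped. The dehydrogenase subunits Bckdha (0.13 ± 0.069, adjusted p = 0.365) and Bckdhb (0.12 ± 0.078, adjusted p = 0.445), the inhibitory kinase Bckdk (0.13 ± 0.055, adjusted p = 0.225) and the activating phosphatase Ppm1k (0.31 ± 0.083, adjusted p = 0.0684) did not pass. Ppm1k had 2474, 2762 and 2859.98 normalised reads on the BCAA-free diet, against 2066, 2013 and 2439.6 on the control diet. Control sham 3 was the highest of the controls, and without that library the adjusted p of Ppm1k was 0.00792 with a difference of 0.40. In the authors' deposited comparison the adjusted p of Ppm1k was 0.0202. DESeq2 on the recovered reads called 1 gene of this list higher and 1 lower, and 812 genes in all.

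Further down the pathway, 0 of 16 genes of distal BCAA breakdown passed (median 0.04), the nearest being Acadsb, the dehydrogenase of the isoleucine branch (0.33 ± 0.081, adjusted p = 0.0521), which passed without control sham 3 (adjusted p = 0.00548). The authors' deposited comparison called Acadsb (adjusted p = 0.00726). DESeq2 on the recovered reads called 1 of these 16 genes higher, and limma without control sham 3 called 3 higher, where it called 1019 genes in all. Among 16 measured genes of propionate handling 0 passed (median 0.064); the smallest p was that of Mut, the methylmalonyl-CoA mutase (0.14 ± 0.057, adjusted p = 0.213). Of 28 amino acid transporters 1 fell and 0 rose: Slc6a6, the taurine carrier, had 2833, 3141 and 2668 normalised reads in BCAA-free libraries, against 3625, 3649 and 3338 in control libraries (-0.30 ± 0.070, adjusted p = 0.0474). Among 30 genes of the ATF4 response 1 fell and 0 rose, where 2.81% of all genes were called. The median of these genes was -0.056, and their differences ranged from -0.98 to 1.42. The gene that fell was Aldh18a1, the first enzyme of proline synthesis (-0.54 ± 0.12, adjusted p = 0.035). Slc6a6 also failed with quantile normalisation. Both calls held without control sham 3 alone (adjusted p = 0.0658 to 0.195 without each other library). Atf4 itself measured 2380.4, 2200.1 and 2106 normalised reads in BCAA-free libraries and 2101, 2115 and 2322 in control libraries (0.032 ± 0.068, adjusted p = 0.856). Asns, asparagine synthetase, a classical ATF4 target, measured 52.0, 58.4 and 63.3 and 47.6, 74.9 and 78.2 in the same order (-0.17 ± 0.22, adjusted p = 0.749). The groups of both genes overlapped. Of 31 genes of amino acid sensing and mTORC1 and of 20 cytosolic aminoacyl-tRNA synthetases 0 passed, with the smallest adjusted p at 0.0606 for Fnip1, a partner of folliculin (-0.30 log2), and 0.101 for Kars, the lysyl-tRNA synthetase (0.19 log2). In the authors' deposited comparison these were 0.0200 for Fnip1 and 0.105 for Kars. DESeq2 on the recovered reads called 1 sensing gene lower, 1 transporter higher and 1 lower, and in the ATF4 list 1 higher and 2 lower. Of the 40 ribosomal protein genes 0 passed, although 35 were nominally higher on the BCAA-free diet (median 0.088), and the ER chaperone list had 0 of 20 genes called. Of 15 heat shock genes 1 fell, the co-chaperone Dnaja1 (-0.53 ± 0.13, adjusted p = 0.0474), a call lost without BCAA-free sham 1, 2 or 3 or control sham 2 or 3 (adjusted p = 0.0556 to 0.195).

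Genes of the extracellular matrix were lower on the BCAA-free diet in several classes. All 5 fibrillar collagen genes that passed were lower on the BCAA-free diet, of 8 measured (median -0.49). Col3a1, the chain of type III collagen on chromosome 1, 45311538 to 45349706 of GRCm38, measured 2352, 2999 and 2909 normalised reads in BCAA-free libraries, against 4977, 6134 and 5938 in control libraries. The highest BCAA-free library was well below the lowest control, and the difference was -1.05 ± 0.10 (adjusted p = 0.00132). Col1a1 and Col1a2 encode the 2 chains of type I collagen. Col1a1 had 2088, 2436 and 2132 on the BCAA-free diet, against 3073, 3814 and 3801 on the control diet (-0.68 ± 0.090, adjusted p = 0.00455). Col1a2 had 2664, 3355 and 2963 against 4358, 4858 and 5104 in the same order (-0.68 ± 0.086, adjusted p = 0.00396). Type V collagen, which sets fibril diameter, gave Col5a1 (-0.54 ± 0.075, adjusted p = 0.0052) and Col5a2 (-0.43 ± 0.10, adjusted p = 0.048) lower. Col5a3 leaned the other way, with 1317, 1284 and 1227 normalised reads on the BCAA-free diet and 962, 912 and 1146 on the control diet, and did not pass (0.35 ± 0.087, adjusted p = 0.0593). Col3a1, Col1a1, Col1a2 and Col5a1 passed whichever library was left out (adjusted p at most 0.039). Col5a2 passed without control sham 1 only (adjusted p = 0.0521 to 0.188 without each other library).

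Basement membranes wrap muscle cells and capillaries, and 14 of 23 of their genes, collagen VI included, fell while 0 rose (median -0.44). The count of lower genes was 4, 4 and 4 without BCAA-free sham 1, 2 and 3, and 9, 9 and 16 without control sham 1, 2 and 3. Col15a1, a collagen of the capillary and muscle basement membrane, had 1613, 1724 and 1842 normalised reads in BCAA-free libraries, against 3147, 4036 and 3377 in control libraries (-1.02 ± 0.089, adjusted p = 0.00132). Nid1, which links laminin to collagen IV, had 3067, 2910.03 and 2751 on the BCAA-free diet and 4709.7, 4596 and 4199 on the control diet (-0.63 ± 0.065, adjusted p = 0.00241). Col6a2, a chain of the beaded filaments around cells, had 1998, 2406 and 2247 against 3349, 3729 and 3797 in that order (-0.71 ± 0.077, adjusted p = 0.00317). In none of the 3 did the groups overlap, and these 3 and Col6a1 passed whichever library was left out (adjusted p at most 0.027). The other 10 were Col4a1, Col4a2, Col6a3, the laminins Lama2, Lama3, Lama4, Lamb1 and Lamc1, Nid2 and the heparan sulphate proteoglycan Hspg2, with differences of -0.92 to -0.33; each failed without BCAA-free sham 1, 2 and 3, and Lama3, Lama4, Lamc1, Nid2 and Hspg2 also without control sham 1 and 2 (adjusted p = 0.0509 to 0.192).

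**Figure D2:**
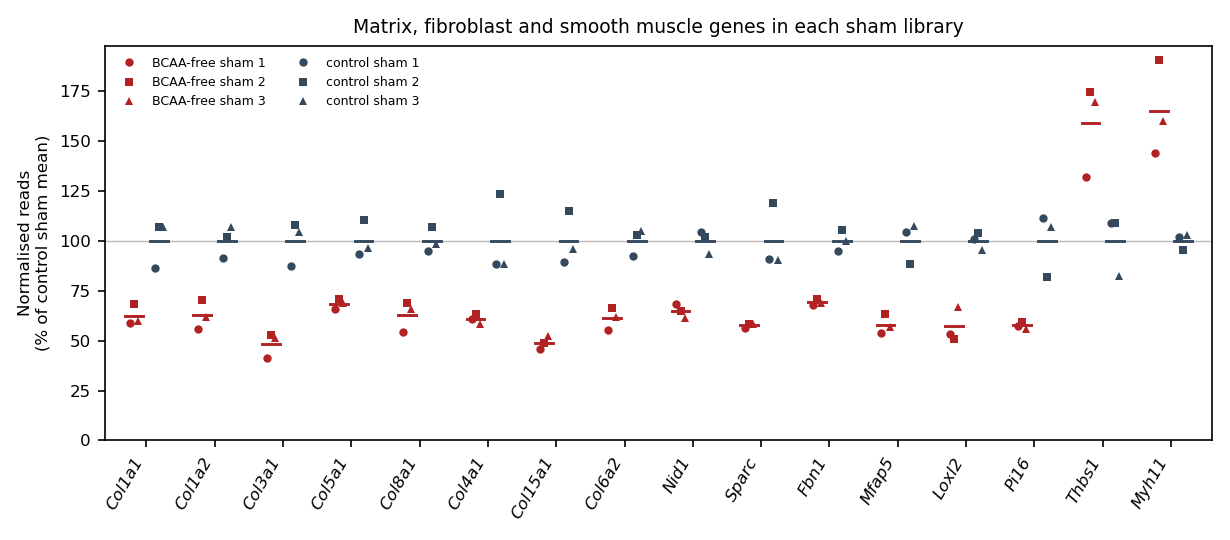
Normalised reads of 16 genes in each library, as a percent of the gene's mean over the 3 control sham libraries (vertical axis, from 0); red symbols left of each tick are BCAA-free sham, dark symbols right of it control sham, shapes mark the replicate and bars the group mean. For the 14 genes from Col1a1 to Pi16 every BCAA-free library lies below every control library, and for Thbs1 and Myh11 every BCAA-free library lies above.

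Genes for proteins that act on collagen were lower in part. Of 22 genes for collagen processing and crosslinking, 5 fell and 0 rose, Loxl1 and the collagen chaperone Serpinh1 among them. Loxl2, a lysyl oxidase that crosslinks collagen, measured 297, 284 and 371 normalised reads in BCAA-free libraries and 561, 578 and 529 in control libraries (-0.81 ± 0.11, adjusted p = 0.0052). Pcolce, which enhances removal of the procollagen tail, had a difference of -0.42 ± 0.063 (adjusted p = 0.0078), and Adamts2, which removes the other end, -0.45 ± 0.078 (adjusted p = 0.0155). Elastic fibre and microfibril genes gave 3 falls and 0 rises of 15: Fbn1, the fibrillin of microfibrils, had 1739, 1812 and 1765 against 2431, 2703 and 2556 normalised reads, BCAA-free before control (-0.53 ± 0.061, adjusted p = 0.00341), Mfap5, a microfibril glycoprotein, differed by -0.78 ± 0.097 (adjusted p = 0.00396) and Emilin1 by -0.57 ± 0.092 (adjusted p = 0.0102). Of 22 matricellular genes 4 fell and 1 rose. Sparc, a collagen-binding glycoprotein, had 7260.4, 7547 and 7500.2 normalised reads on the BCAA-free diet, against 11684, 15352 and 11623 on the control diet (-0.78 ± 0.093, adjusted p = 0.00354). The large proteoglycan Vcan (-0.98 ± 0.18, adjusted p = 0.0191), Smoc2 and Sparcl1 were the other falls. Thbs1, thrombospondin 1, an activator of latent TGF-beta, rose, with 457, 604 and 587 normalised reads in BCAA-free and 376, 377 and 285 in control libraries (0.66 ± 0.14, adjusted p = 0.0298). Loxl2, Fbn1, Mfap5 and Sparc passed whichever library was left out (adjusted p at most 0.0435). Without BCAA-free sham 3 Pcolce and Thbs1 did not pass, without BCAA-free sham 2 Thbs1 did not, and Adamts2, Loxl1, Serpinh1, Emilin1, Vcan, Smoc2 and Sparcl1 failed without any 1 of the BCAA-free libraries (adjusted p = 0.0505 to 0.183 in these and the next cases). Serpinh1, Smoc2 and Sparcl1 failed without control sham 2 as well, and Smoc2 and Sparcl1 without control sham 1.

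Of 10 fibril-associated and other collagens 1 fell, Col8a1, a short-chain collagen of vessel walls, with 377, 479 and 457 normalised reads in BCAA-free libraries and 661, 742 and 682 in control libraries (-0.67 ± 0.10, adjusted p = 0.0089; at most 0.0398 with any 1 library left out). Among 21 matrix proteases and TIMPs 3 fell and 0 rose: Adamts9, a versican-cleaving protease (-0.81 ± 0.10, adjusted p = 0.00396), Mmp2, gelatinase A (-0.55 ± 0.085, adjusted p = 0.00924), and Adamtsl2 (-0.78 ± 0.17, adjusted p = 0.0347). Of 11 small leucine-rich proteoglycans 3 fell and 0 rose, namely Aspn (-0.57 ± 0.12, adjusted p = 0.0291), Lum (-0.45 ± 0.097, adjusted p = 0.0341) and Bgn (-0.30 ± 0.066, adjusted p = 0.0369), and the list median was 0.044. In TGF-beta signalling 2 of 23 genes fell, where 1.76% of all genes were called lower. They were Fstl1, a secreted follistatin-like protein (-0.58 ± 0.084, adjusted p = 0.00617), and Tgfbr2, the type II receptor (-0.31 ± 0.064, adjusted p = 0.0294). The cytokine Tgfb1 overlapped between diets, at 817, 864 and 781 normalised reads in BCAA-free and 935, 1069.6 and 754 in control libraries (-0.15 ± 0.11, adjusted p = 0.526). Adamts9 and Fstl1 passed whichever library was left out (adjusted p at most 0.033). Mmp2 failed without BCAA-free sham 2 (adjusted p = 0.0531), and Adamtsl2, Aspn, Lum, Bgn and Tgfbr2 failed without BCAA-free sham 1 or 3, all but Bgn without BCAA-free sham 2, Adamtsl2, Bgn, Lum and Tgfbr2 without control sham 1, and Adamtsl2, Bgn and Aspn without control sham 2 (adjusted p = 0.052 to 0.156).

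Fibroblast markers moved with the collagens. Of 18 such genes 6 fell and 0 rose (median -0.39), and their summed level was 73192 to 76133 normalised reads in BCAA-free libraries, against 84897 to 91706 in control libraries. Pi16, a marker of adventitial fibroblasts, had 1503, 1555 and 1454 normalised reads on the BCAA-free diet and 2903, 2132 and 2797 on the control diet (-0.78 ± 0.10, adjusted p = 0.00432). Cd34, shared by fibroblasts and endothelium, had 2865, 2619 and 2734 against 4481, 4971 and 3832 in the same order (-0.68 ± 0.085, adjusted p = 0.00396). The defining receptor Pdgfra had 1310.5, 1519 and 1349 against 1732, 1610.4 and 1542 and did not pass (-0.23 ± 0.075, adjusted p = 0.136). All 18 were measured and none was at 0. Pi16 and Cd34 passed whichever library was left out (adjusted p at most 0.033). The part of the marker level in the collagen result was not tested.

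Interferon-stimulated genes were lower as well. All 44 measured members of 45 had a lower level on the BCAA-free diet (median -0.57), and 12 passed, each of them lower. The list was chosen with earlier results of these data known and does not hold every related gene. Ifit1bl1, a gene of the Ifit family outside it, was called higher on the BCAA-free diet (0.66 in sham hearts, and 0.88 in TAC hearts). The number called lower was 3, 1 and 3 without BCAA-free sham 1, 2 and 3, and 26, 7 and 13 without control sham 1, 2 and 3. Type I interferon acts on such genes largely through a short promoter element that binds the ISGF3 and IRF factors. Promoters of 4 of the called genes are shown because the letters of that element stand in each. They are RefSeq sequences of GRCm38.p6, 250 bases before to 50 after the start of the transcript, 5′ to 3′ on the strand of the gene. Capitals mark every match, on either strand, of GAAA followed by 2 bases of any kind and a second GAAA, with overlapping matches merged: Isg15 is at chr4:156200769-156201068, minus strand, Ifit3 at chr19:34583279-34583578, plus strand, Rsad2 at chr12:26456403-26456702, minus strand and Gbp3 at chr3:142559794-142560093, plus strand.
Isg15: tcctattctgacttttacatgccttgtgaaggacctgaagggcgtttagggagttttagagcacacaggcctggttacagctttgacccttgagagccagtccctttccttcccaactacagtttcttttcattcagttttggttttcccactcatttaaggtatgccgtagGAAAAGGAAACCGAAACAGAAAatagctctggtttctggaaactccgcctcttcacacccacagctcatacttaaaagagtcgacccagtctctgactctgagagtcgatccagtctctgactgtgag
Ifit3: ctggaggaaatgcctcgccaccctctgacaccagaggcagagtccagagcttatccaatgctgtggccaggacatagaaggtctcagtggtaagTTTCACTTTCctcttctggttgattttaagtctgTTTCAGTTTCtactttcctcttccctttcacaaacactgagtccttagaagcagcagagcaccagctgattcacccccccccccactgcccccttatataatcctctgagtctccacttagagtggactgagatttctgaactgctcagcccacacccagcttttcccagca
Rsad2: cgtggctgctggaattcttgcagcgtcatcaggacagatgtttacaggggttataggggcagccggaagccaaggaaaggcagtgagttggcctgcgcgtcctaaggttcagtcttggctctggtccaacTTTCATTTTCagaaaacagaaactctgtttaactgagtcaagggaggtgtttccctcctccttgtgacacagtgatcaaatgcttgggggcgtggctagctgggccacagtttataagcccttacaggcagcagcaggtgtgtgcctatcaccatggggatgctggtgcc
Gbp3: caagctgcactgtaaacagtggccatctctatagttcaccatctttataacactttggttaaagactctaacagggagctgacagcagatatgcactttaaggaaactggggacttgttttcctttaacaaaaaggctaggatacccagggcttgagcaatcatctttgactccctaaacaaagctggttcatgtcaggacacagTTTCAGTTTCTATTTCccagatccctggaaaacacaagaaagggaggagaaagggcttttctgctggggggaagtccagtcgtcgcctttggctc
Matches overlap in Isg15 and Gbp3. RefSeq gives Gbp3 a second promoter, at chr3:142560106-142560405, which holds no match and is not shown. The letters were found in 19 (59.4%) of the 32 list members with a promoter sequence, in 6 of the 10 called members with one, and in 415 (3.72%) of 11164 tested genes with one. Among all called lower genes with a promoter sequence the share was 5.61% of 196, and among called higher genes 2.48% of 121. A match describes letters and is not evidence that a factor bound there.

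Isg15, a ubiquitin-like protein, whose promoter holds 3 overlapping matches, measured 88.5, 69.6 and 66.2 normalised reads in BCAA-free libraries and 116, 187 and 138 in control libraries (-0.92 ± 0.20, adjusted p = 0.0352). Ifit3, an antiviral tetratricopeptide protein with 2 matches, had 171, 177 and 183 on the BCAA-free diet, against 332, 501 and 373 on the control diet (-1.14 ± 0.15, adjusted p = 0.00396). Rsad2, the antiviral enzyme viperin, with 1 match, had 394, 480.4 and 441 against 557, 911 and 841 in the same order (-0.78 ± 0.16, adjusted p = 0.0277). The BCAA-free libraries lay close together, while the controls spread, with control sham 2 highest in all 3 genes. Irf7, the transcription factor that amplifies the interferon response, had 254, 254 and 215 on the BCAA-free diet and 359, 531 and 368 on the control diet (-0.77 ± 0.15, adjusted p = 0.0249). Ifitm3, which blocks virus entry, had 2075, 1767 and 1899 against 2526, 2896 and 3104 (-0.57 ± 0.084, adjusted p = 0.00706). The other 7 called genes were Ifit3b, Gbp3, Rtp4, Ifi27l2a, Xaf1, Ifi44 and Lgals3bp, with differences of -1.16 to -0.54; Ifit3 and Ifit3b are close copies and may share reads. Ifit3 alone of the 12 passed whichever library was left out (adjusted p at most 0.033). Ifitm3 and Ifit3b failed without BCAA-free sham 2, the other 9 without each of the 3 BCAA-free libraries, and Rsad2, Isg15, Xaf1, Ifi44 and Lgals3bp also without control sham 2 (adjusted p = 0.0526 to 0.179).

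Antigen presentation genes fell beside them. Of 21 genes of MHC class I and its peptide supply 6 fell and 0 rose (median -0.31), and of 9 of MHC class II 4 fell and 0 rose (median -0.49). B2m, the light chain of class I molecules, had 3395, 3327 and 3605 normalised reads in BCAA-free libraries, against 4579.6, 7169 and 5863 in control libraries (-0.75 ± 0.12, adjusted p = 0.0114). H2-D1, a classical class I heavy chain, had 5549.7, 5229 and 5026 against 6439, 9558 and 7773, BCAA-free before control (-0.57 ± 0.11, adjusted p = 0.0249). Control sham 2 was the highest library for both and the BCAA-free libraries differed little among themselves. H2-Q4 (-0.90 ± 0.13, adjusted p = 0.00675), H2-Q6 and H2-Q7 are close paralogs whose separate values are uncertain, and the sixth was Psmb10, an immunoproteasome subunit. The number of class I genes called lower was 1, 0 and 1 without BCAA-free sham 1, 2 and 3, and 8, 4 and 6 without control sham 1, 2 and 3, and of class II genes 0, 0 and 0 without BCAA-free sham 1, 2 and 3, and 4, 1 and 4 without control sham 1, 2 and 3. The class II chain H2-Aa had 568, 587 and 698 normalised reads on the BCAA-free diet and 798, 1222 and 1083 on the control diet (-0.72 ± 0.14, adjusted p = 0.0228), and the invariant chain Cd74 had 1209, 1515 and 1546 against 1796, 2914 and 2549 (-0.74 ± 0.15, adjusted p = 0.0278). Ciita, the master regulator of class II genes, had few reads and did not pass (-0.49 ± 0.24, adjusted p = 0.309). H2-Q4 failed without BCAA-free sham 2, B2m, H2-D1, H2-Q6, H2-Q7, Psmb10, H2-Aa and Cd74 without each BCAA-free library, H2-Q7, Psmb10 and Cd74 also without control sham 2, and Psmb10 without control sham 1 (adjusted p = 0.0504 to 0.17).

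Macrophage markers were nominally lower throughout, in 26 of 26 genes (median -0.35), with 4 called lower, and their summed level was 11069.6 to 12096 normalised reads in BCAA-free libraries, against 14642 to 15986 in control libraries. C1qa, C1qb and C1qc encode the chains of complement C1q, made chiefly by resident macrophages. C1qa had 926, 1180 and 1032 normalised reads on the BCAA-free diet and 1582, 1487 and 1513 on the control diet (-0.55 ± 0.086, adjusted p = 0.00933). C1qb had 712, 862 and 806 against 1228, 1186 and 1215 (-0.61 ± 0.080, adjusted p = 0.00432) and C1qc 924, 882 and 952 against 1345, 1285 and 1336 (-0.52 ± 0.066, adjusted p = 0.00396), BCAA-free before control. In all 3 the control libraries lay close together, and no BCAA-free library reached them. The mannose receptor Mrc1 was the fourth (-0.41 ± 0.085, adjusted p = 0.029), and the growth factor receptor Csf1r did not pass (-0.31 ± 0.074, adjusted p = 0.0525). All 26 markers were measured in these libraries. C1qb and C1qc passed whichever library was left out (adjusted p at most 0.033), C1qa failed without BCAA-free sham 3, and Mrc1 without BCAA-free sham 1, 2 or 3 or control sham 1 (adjusted p = 0.0569 to 0.133). Calls in the interferon, class II and macrophage lists were all lower, and their parts in each other were not tested. Of 3 neutrophil markers measured 0 passed, though all 3 were nominally lower (median -1.61). S100a9, a calprotectin subunit, was at 10.6, 9.45 and 28.4 normalised reads in BCAA-free and 131, 22.8 and 65.2 in control libraries (adjusted p = 0.0962). DESeq2 on the recovered reads called 1 of the 3 lower, and limma without control sham 2 called 2 lower, where these called 812 and 283 genes in all.

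**Figure D3:**
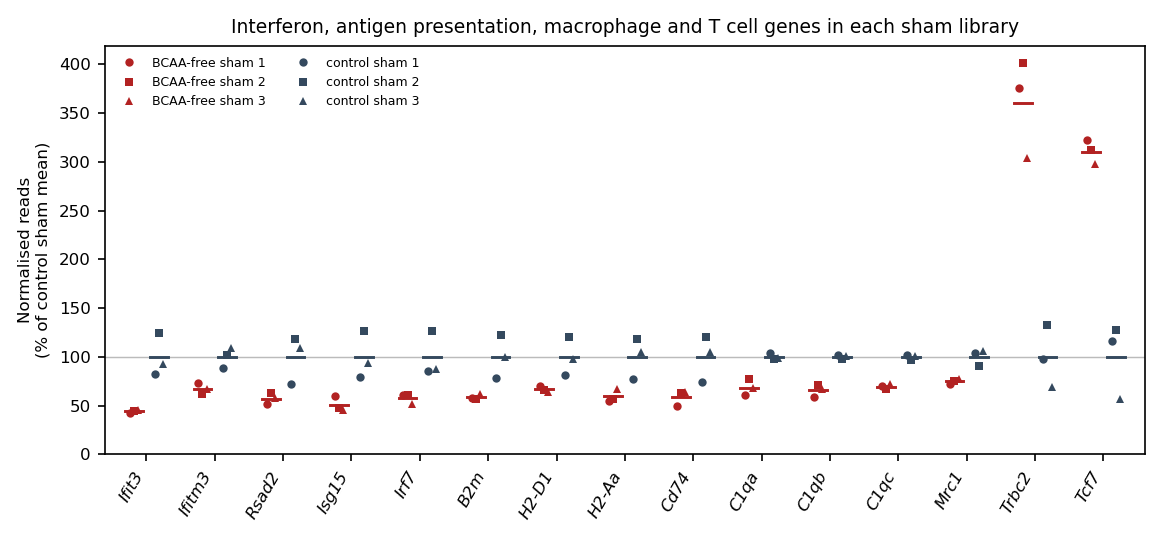
Normalised reads of 15 immune genes in each library, as a percent of the control sham mean of the gene (vertical axis, from 0); red symbols left of each tick are BCAA-free sham, dark symbols right of it control sham, shapes mark the replicate and bars the group mean. From Ifit3 to Mrc1 every BCAA-free library lies below every control library, and for Trbc2 and Tcf7 every BCAA-free library lies above.

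T cell genes went the other way at low levels. All 13 T and NK cell markers measured, of 15, were nominally higher on the BCAA-free diet (median 1.59), 2 of them called, and their summed level was 428 to 602 normalised reads in BCAA-free libraries, against 92.3 to 239 in control libraries. Trbc2, a constant segment of the T cell receptor, had 49.1, 52.4 and 39.7 on the BCAA-free diet and 12.8, 17.4 and 9.03 on the control diet (1.60 ± 0.28, adjusted p = 0.0157). Cd3g, a chain of the CD3 complex, had 40.4, 59.3 and 44.4 against 13.9, 15.2 and 0 in the same order (2.21 ± 0.52, adjusted p = 0.0472). That call was lost with edgeR (adjusted p = 0.0584), with DESeq2 (adjusted p = 0.285) and with a pseudocount of 1, and held without control sham 3, with a difference of 1.47 (adjusted p = 0.0103). Control sham 3 was at 0 for Cd3g and Cd3d and near 0 for Cd8a (66.4, 101 and 104 in BCAA-free and 41.8, 35.8 and 1.0 in control libraries). Without control sham 3 the list median was 1.02 and 5 markers passed, Trbc2 among them (adjusted p = 0.0117). Tcf7, a transcription factor of naive T cells, had 126, 122 and 116 normalised reads on the BCAA-free diet and 45.3, 49.95 and 22.1 on the control diet (1.61 ± 0.26, adjusted p = 0.0103). None of Trbc2, Cd3g and Tcf7 passed without BCAA-free sham 1, 2 or 3 (adjusted p = 0.0569 to 0.181). Of 9 B cell markers 0 passed (median 0.12), where 2.81% of all genes passed. Of 16 chemokines 1 fell, Cxcl9, which draws T cells, with 91.4, 89.4 and 89.8 normalised reads in BCAA-free libraries and 143, 205 and 133 in control libraries (-0.78 ± 0.18, adjusted p = 0.0436), a call lost without any 1 library but control sham 3 (adjusted p = 0.0568 to 0.151). In the complement list of 17, 1 gene rose, the adipokine gene Cfd, and 1 fell. C7, a part of the membrane attack complex, was the fall (-0.87 ± 0.16, adjusted p = 0.0174) but not without BCAA-free sham 1, 2 or 3 (adjusted p = 0.0661 to 0.0919).

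Of 10 adipocyte markers 3 rose and 0 fell (median 0.93, and 0.44 without BCAA-free sham 1), with 1 library ahead of the rest in each. Their summed level overlapped between the diets, at 161549 to 192000 normalised reads in BCAA-free libraries, with BCAA-free sham 1 the lowest, and 128958 to 171666 in control libraries; the sum also counts Lpl, lipoprotein lipase, which heart muscle makes as well. Plin1, which coats the lipid droplet of fat cells, had 188, 108 and 94.5 normalised reads in BCAA-free libraries and 60.4, 44.5 and 37.1 in control libraries (1.35 ± 0.26, adjusted p = 0.0249). Cfd, the adipokine adipsin, had 375, 309 and 222 against 119.6, 149.9 and 163 (1.03 ± 0.19, adjusted p = 0.0178), and Retn, resistin, 55.8, 49.8 and 44.4 against 13.9, 8.69 and 20.1 (1.61 ± 0.29, adjusted p = 0.0174), BCAA-free before control. Adipoq, adiponectin, had 172, 79.9 and 72.8 on the BCAA-free diet and 59.2, 28.2 and 34.1 on the control diet and did not pass (adjusted p = 0.0657). BCAA-free sham 1, the library that carried Ucp1, was highest in each. Without it the differences were 1.06 for Plin1 (adjusted p = 0.114), 0.86 for Cfd (adjusted p = 0.0945) and 1.53 for Retn (adjusted p = 0.0992). All 3 also failed without BCAA-free sham 2, and Plin1 and Retn without BCAA-free sham 3 (adjusted p = 0.0537 to 0.114).

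Genes of the vessel wall moved in both directions. The counts below stand beside the 2.81% of all genes that were called. Klf2, a transcription factor that laminar flow induces in endothelium, lies on chromosome 8, 72319033 to 72321656 of GRCm38 and had 3746, 3164 and 2989 normalised reads in BCAA-free libraries, against 1319.9, 1592 and 1677 in control libraries. Each BCAA-free library was well above each control, and the difference was 1.11 ± 0.10 (adjusted p = 0.00132; at most 0.01 with any 1 library left out). It was the 1 of 19 immediate early genes that passed, and Fos, whose groups overlapped, had 136, 192 and 99.3 on the BCAA-free diet and 65.0, 105 and 71.2 on the control diet (adjusted p = 0.121). Among 15 smooth muscle and pericyte markers 2 rose and 0 fell. Myh11, the smooth muscle myosin heavy chain, had 3316, 4385 and 3687 normalised reads in BCAA-free libraries and 2344, 2192 and 2375 in control libraries (0.71 ± 0.089, adjusted p = 0.00396; at most 0.0242 with any 1 library left out). Lmod1, a smooth muscle leiomodin, differed by 0.70 ± 0.14 (adjusted p = 0.0292) and failed without BCAA-free sham 2 or 3 or control sham 2 (adjusted p = 0.0664 to 0.144). Summed smooth muscle markers were at 60494 to 64502 normalised reads in BCAA-free and 57991 to 60231 in control libraries. Of 21 endothelial markers 2 fell and 0 rose (median -0.16): the phosphatase Ptprb (-0.43 ± 0.076, adjusted p = 0.0162) and the transcription factor Erg (-0.51 ± 0.10, adjusted p = 0.0294), both lost without any 1 of the BCAA-free libraries and Erg also without control sham 2 (adjusted p = 0.0538 to 0.138). Lists of nerve and glial (7 genes) and mesothelial markers (4 genes) had 0 called, and of 7 red cell genes 1 fell, the beta globin Hbb-bt (-0.41 ± 0.087, adjusted p = 0.034), which shares sequence with other globins and failed without BCAA-free sham 1, 2 or 3 or control sham 2 (adjusted p = 0.0625 to 0.138).

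In lists of 16 to 28 genes of the muscle cell itself, 1 to 3 genes passed in each, where 2.81% of all genes did. Of 20 cardiomyocyte markers 1 fell, Ryr2, the calcium release channel of the sarcoplasmic reticulum, with 47512, 44940.4 and 45523 normalised reads in BCAA-free libraries and 59957, 54220.4 and 55390.5 in control libraries (-0.30 ± 0.066, adjusted p = 0.0386). It was also the 1 of 19 calcium handling genes called. Of 16 cardiac stress genes 1 fell, Acta1, skeletal alpha-actin, with 8898, 6892 and 6281 on the BCAA-free diet against 10427, 10637 and 9886 on the control diet (-0.50 ± 0.10, adjusted p = 0.0292). The natriuretic peptides overlapped between the diets. Nppa had 17018, 14546 and 9429 normalised reads in BCAA-free and 6442, 12901 and 7368 in control libraries (0.64 ± 0.24, adjusted p = 0.183), and Nppb had 3407, 5101 and 4766 and 2252, 6591 and 4214 (0.13 ± 0.29, adjusted p = 0.857). Myh7, the slow myosin heavy chain, had 27158, 32773 and 30160 normalised reads in BCAA-free libraries, against 25579, 25460 and 23024 in control libraries. It did not pass limma (0.28 ± 0.077, adjusted p = 0.078) but passed DESeq2 (adjusted p = 0.0130). Among 28 ion channel and connexin genes 3 potassium channels rose and 0 fell: Kcnk3, a background channel (0.35 ± 0.056, adjusted p = 0.0102), Kcnj11, the pore of the ATP-sensitive channel (0.26 ± 0.051, adjusted p = 0.0249), and Kcnj5, a subunit of the acetylcholine-gated channel (0.33 ± 0.073, adjusted p = 0.037). Each of these 5 calls was lost without BCAA-free sham 2, Kcnj11, Kcnj5, Ryr2 and Acta1 also without BCAA-free sham 3, all but Acta1 without BCAA-free sham 1, Ryr2, Acta1 and Kcnj5 without control sham 1, and Acta1, Kcnj11 and Kcnj5 without control sham 2 (adjusted p = 0.0563 to 0.164).

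Most fuel genes did not pass, and neither did most of all genes tested, of which 2.81% passed. Of 29 genes of fatty acid oxidation 1 rose, Slc27a1, a fatty acid transporter (0.31 ± 0.062, adjusted p = 0.0258), of 21 of the TCA cycle 1 rose, Idh2, the mitochondrial isocitrate dehydrogenase (0.28 ± 0.065, adjusted p = 0.0445), and of 46 nuclear genes of the respiratory chain, 13 mitochondrially encoded genes and 34 of sterol and fatty acid synthesis 0 passed. In the glycolysis list of 34, 13 genes lay wholly lower on the BCAA-free diet, where 11.8% of all genes did, and 4 wholly higher, where 11.5% did (median -0.056). The 3 that passed fell, Pfkfb2, which makes the activator of phosphofructokinase (-0.42 ± 0.082, adjusted p = 0.0236), and the muscle enzymes Eno3 (-0.31 ± 0.064, adjusted p = 0.0292) and Pgam2 (-0.26 ± 0.053, adjusted p = 0.0295). Pdk4, the kinase that shuts down pyruvate oxidation, had 20132, 18569.7 and 13611 normalised reads in BCAA-free libraries, against 31721, 26446 and 25910.2 in control libraries (-0.70 ± 0.13, adjusted p = 0.0178). Even the highest BCAA-free library was below the lowest control. With Mgll, monoacylglycerol lipase (-0.38 ± 0.067, adjusted p = 0.0156), it made up the 2 falls among 18 PPAR-alpha responsive genes. Of 23 oxidative stress genes 2 rose, the secreted peroxidase Gpx3 (0.54 ± 0.10, adjusted p = 0.0199) and Gstm2 (0.34 ± 0.070, adjusted p = 0.0298). All 9 calls were lost without BCAA-free sham 2, all but Pdk4 without BCAA-free sham 1, all but Gpx3 without BCAA-free sham 3, Slc27a1, Idh2, Gstm2, Pfkfb2, Eno3 and Pgam2 without control sham 1, and the first 3 of these 6 without control sham 2 (adjusted p = 0.051 to 0.166).

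Growth genes included a group at low levels that fell. Of 28 cell cycle genes 3 fell and 0 rose (median -0.50; 3 were called lower in the full set and 1, 0 and 0 without BCAA-free sham 1, 2 and 3, and 1, 0 and 9 without control sham 1, 2 and 3). Ccna2, cyclin A2, had 13.5, 11.2 and 12.3 normalised reads in BCAA-free libraries and 32.5, 59.7 and 38.1 in control libraries (-1.50 ± 0.29, adjusted p = 0.0228). Top2a, topoisomerase II alpha, had 23.1, 26.6 and 25.5 on the BCAA-free diet and 90.5, 124 and 46.1 on the control diet (-1.54 ± 0.31, adjusted p = 0.0271). Control sham 2 was highest in both, and the groups did not overlap. The mitotic kinesin Kif23 also fell (-1.28 ± 0.30, adjusted p = 0.0469, but 0.0564 with edgeR), and Mki67 had 25.98, 48.1 and 34.0 against 122, 251 and 52.2 and did not pass (adjusted p = 0.0697). Cdkn1a, the inhibitor p21, was the 1 of 22 atrophy and autophagy genes that rose, at 2007, 1770.4 and 1578 normalised reads in BCAA-free and 1219, 1253 and 1034 in control libraries (0.61 ± 0.098, adjusted p = 0.0102). Socs2, a brake on growth hormone signalling, was the 1 of 24 insulin and growth factor genes that fell (-0.45 ± 0.094, adjusted p = 0.0309). Of all genes 2.81% were called, so 1 call in a list of that size says little about the list. Each of the 5 calls failed without BCAA-free sham 2, all but Kif23 without BCAA-free sham 1, the 3 cell cycle genes without BCAA-free sham 3 and control sham 2, and Top2a, Kif23 and Socs2 without control sham 1 (adjusted p = 0.0585 to 0.17).

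Circadian clock genes set control sham 3 apart from the other controls. The core clock runs on an activating pair, Arntl with Clock or Npas2, and on repressors of the Per family, so levels depend on the hour at which tissue is taken, which the labels do not give. Of 19 clock genes 2 rose and 3 fell with diet. Per3, a period repressor, had 693, 835 and 878 normalised reads in BCAA-free libraries, against 2030.4, 1753 and 1178 in control libraries (-1.01 ± 0.16, adjusted p = 0.0103), and Per2 had 376, 407 and 438 against 1219, 953 and 549.7 (-1.08 ± 0.22, adjusted p = 0.0274). In both, control sham 3 was the lowest control. Arntl had 485, 447 and 406 on the BCAA-free diet and 110.3, 135 and 392 on the control diet (1.28 ± 0.35, adjusted p = 0.0759), with control sham 3 close to the BCAA-free libraries, and Ciart, a clock repressor, had 266, 292 and 284 against 729, 735 and 219 (adjusted p = 0.261). Per1 measured 3371, 3341 and 3232 on the BCAA-free diet and 5274, 5881 and 2006 on the control diet, so that control sham 3 lay below all the BCAA-free libraries. The other calls were Npas2 (1.02 ± 0.24, adjusted p = 0.0455, and 0.054 with edgeR), Nr1d1 (0.41 ± 0.088, adjusted p = 0.0351) and the output regulator Tef (-0.56 ± 0.12, adjusted p = 0.0309). With control sham 3 left out, 12 of the 19 passed, 4 higher and 8 lower, Arntl at 1.83 (adjusted p = 9.9e-05) and Ciart at -1.37 (adjusted p = 9.9e-05) among them. All 5 calls were lost without BCAA-free sham 1 or 2, all but Per3 without BCAA-free sham 3, Nr1d1 and Npas2 without control sham 1, and Per2 and Npas2 without control sham 2 (adjusted p = 0.0594 to 0.182). The part of the clock state in the diet difference of other genes was not tested.

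**Figure D4:**
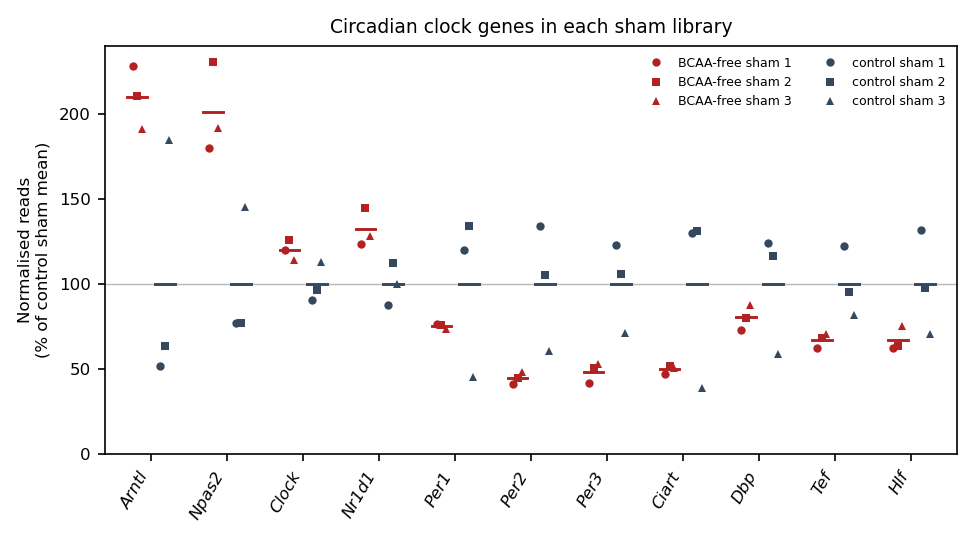
Normalised reads of 11 clock genes in each library, as a percent of the control sham mean of the gene (vertical axis, from 0); red symbols left of each tick are BCAA-free sham, dark symbols right of it control sham, shapes mark the replicate and bars the group mean. The triangle of control sham 3 lies away from control sham 1 and 2 for Arntl, Npas2, Per1, Ciart and Dbp, toward the BCAA-free libraries or past them.

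The last question was whether the diet difference of sham hearts differed from that of TAC hearts. Of 15458 genes measured in both, 7 (0.0453%) passed limma for the difference of the 2 diet effects, and 1571 did so at an unadjusted p under 0.05. Klf2 and Lmnb1 had the smallest p. In TAC hearts Klf2 had 2367, 2825 and 2716 normalised reads on the BCAA-free diet and 2764, 2984 and 2746 on the control diet, a diet difference of -0.11, so the sham difference exceeded the TAC difference by 1.21 ± 0.14 (adjusted p = 0.00496). Its sham control libraries were the low ones, and the other 3 groups lay between 2367 and 3746 normalised reads, on the scales of their own tables. The call held with any 1 of the 12 libraries left out (adjusted p at most 0.0271) but not without control TAC 2 and 3 together (adjusted p = 0.0726), a pair left out because earlier work on these data had set it apart. Srsf2, a splicing factor, was higher on the BCAA-free diet in sham hearts (3915, 3988 and 4012 against 3093, 2912 and 3132 normalised reads). In TAC hearts it was lower (3565, 3379 and 3794 against 4593, 3987 and 4189.97), and was called there in the fit of all 12 libraries (-0.25, adjusted p = 0.0334). The sham difference exceeded the TAC difference by 0.63 ± 0.092 (adjusted p = 0.0361). Lmnb1, Stmn1, Cdc7, Igfbp6 and the predicted gene Gm25262 were the other 5. Their number is small, and by setting the count ranged over 1 to 17 genes.

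In the fit of all 12 libraries, with 1 estimate of spread for all groups, 128 genes (0.828%) were called for diet in sham hearts and 1203 (7.78%) in TAC hearts. Most genes called in the fit of the sham libraries pointed the same way after TAC. Of 437 with a value there, 391 had the same sign. How often all genes shared a sign was not examined. Of the 437, 138 were themselves called in TAC hearts in that direction and 2 in the other, where 7.78% of all genes were called in either direction. The sham and TAC comparisons share no library. The differences were smaller in TAC hearts for 349 of the 437, which were chosen for passing in sham hearts. The genes lower in sham hearts had a median of -0.55 there and -0.30 in TAC hearts, and the higher ones 0.43 and 0.28. Ptgds was higher on the BCAA-free diet after either operation, at 1.16 in sham and 1.14 in TAC hearts, where it also passed (adjusted p = 0.00279). Col3a1 was -1.05 in sham and -0.44 in TAC hearts, where it did not pass (adjusted p = 0.465), and the difference between the operations did not pass either (adjusted p = 0.73). C1qc was -0.52 in sham and 0.0063 in TAC hearts (difference adjusted p = 0.278), and the class II gene H2-Aa was -0.72 in sham and 0.46 in TAC hearts (difference adjusted p = 0.0675), so none of these 3 was shown to differ between the operations.

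**Figure D5:**
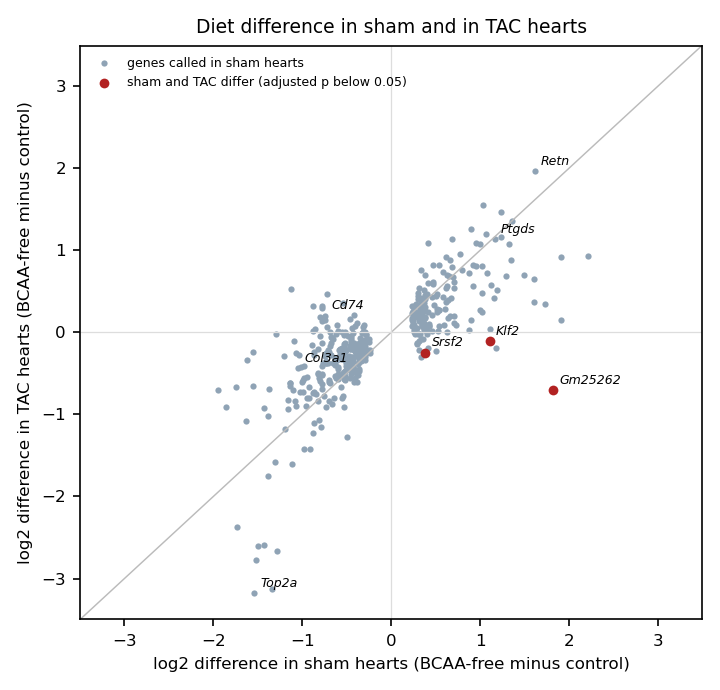
Each point is 1 of the 437 genes called for diet in sham hearts, at its log2 difference (BCAA-free minus control) in sham hearts on the horizontal axis and in TAC hearts on the vertical axis; the grey diagonal marks equal differences and red points passed the test of the difference. Klf2, Srsf2 and Gm25262 are higher on the BCAA-free diet in sham hearts and at or below 0 in TAC hearts.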

How the data were processed

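The authors sequenced polyA-selected RNA from hearts, per the labels' protocols, and the submitters' processing notes name Trimmomatic 0.36, STAR 2.5.2b, Subread 1.5.2, DESeq2 and the mouse build GRCm38. Strandedness is not given in the sources used here. The authors deposited a signal per gene and library, normalised reads, with log2 fold changes and p-values of their own comparison. All 6 sham columns came out as whole reads within a tolerance of 0.001 when divided by the value of 1 read, so the counts behind them were recovered and run through edgeR 4.0.16 and DESeq2 1.42.0 as alternatives.

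Genes with a mean of at least 10 entered limma 3.58.1 (R 4.3.3) with a mean-variance trend, on log2(value + 4), for BCAA-free minus control in sham hearts. p-values were adjusted by the Benjamini-Hochberg method over all 15596 genes, and a gene was called at an adjusted p under 0.05. The diet effects in sham and TAC hearts were compared in 1 fit of all 12 libraries, which come from separately normalised tables. The fits were tested on simulated data. Replicate libraries of a group differed by far more than sampling noise. The members and the gene lists were chosen with earlier results of these data known. Named genes were the 12 largest rises and falls, up to 3 called genes with the smallest p per list, 12 genes of interest and those called between the operations; further members are given for their role or because they changed when a library was left out, and were chosen after their values were seen. A gene that this rule names is not reported here. Positions are from GENCODE M21, which held 15582 of the 15613 genes, and promoters from RefSeq, which held one for 317 of the 438 called genes. Chosen alternatives were other pseudocounts, minimum means, scalings, tests, a replicate block and each library left out.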

Additional observations from a re-analysis of the deposited data

Results flagged for a closer look

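The diet difference of sham hearts differed from that of TAC hearts by the test of the difference itself for 7 genes, given here as sham minus TAC on the log2 scale. Klf2, the flow-induced endothelial factor, differed by 1.21, the splicing factor gene Srsf2 by 0.63, and the predicted gene Gm25262 by 2.52, and these 3 were also called for diet in sham hearts. Lmnb1, lamin B1, differed by 1.20, Stmn1, which destabilises microtubules, by 1.08, and Cdc7, a kinase that starts DNA replication, by 1.98. Igfbp6, a binding protein of insulin-like growth factor II, was the 1 gene with a negative value, at -0.79. In sham hearts the diet differences of Lmnb1, Stmn1, Cdc7 and Igfbp6 were -0.19, -0.13, 0.19 and -0.048. In TAC hearts those of the same genes, in that order, were larger in size, at -1.39, -1.20, -1.79 and 0.74. The sham and TAC values were normalised in separate tables, and the part of that in the differences was not tested.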

How the results depend on the processing

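For diet in sham hearts, 438 genes were called. The count was 812 with DESeq2 on the recovered reads and ranged from 68 to 1019 with 1 library left out, the lowest without BCAA-free sham 2 and the highest without control sham 3. It was 464 with edgeR, 406 with quantile normalisation, 443 with TMM, 430 and 447 with pseudocounts of 1 and 16 and 382 with a minimum mean of 50. DESeq2 called 434 of the 438, and the authors' deposited table called 813 genes, of which 434 were shared. For the difference between sham and TAC hearts, 7 genes passed; 4 did with a minimum mean of 50, 1 without control TAC 2 and 3 together, and 2 to 17 with any 1 library left out. Whether the replicate numbers of the 2 diets pair the libraries was not settled. Deviations from the group means correlated at 0.0126, 0.107 and 0.0211 for same-numbered libraries and at -0.066 to 0.044 for the others. Not every library correlated best with its own number, and 3 libraries a group are too few to decide. With the replicate number as a block, 713 genes were called for diet, 424 of the 438 among them, and 3 for the difference. Of 126 named genes, 97 were called, and none of these changed sign under any alternative. Of the genes not called, 4 changed sign when 1 library was left out: Tg ranged from -0.078 to 0.37, Igfbp6 from -0.10 to 0.028, Atf4 from -0.017 to 0.078 and Nppb from -0.27 to 0.50. Named calls were lost for 60, 68 and 60 genes without BCAA-free sham 1, 2 and 3, and for 23, 32 and 1 without control sham 1, 2 and 3. Calls were also lost with quantile normalisation (Idh2, Npas2, Ifi44, Slc6a6 and Dnaja1), a minimum mean of 50 (Npas2, Ifi44, Slc6a6 and Dnaja1), edgeR (Npas2, Kif23 and Cd3g), a pseudocount of 1 (Kif23 and Cd3g), DESeq2 (Cd3g) and the block (Bcat1). Libraries held 29925796 to 38979122 reads each, and 3 libraries a group limit the precision of every difference.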

Other observations

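Several called genes of cardiac control belonged to none of the lists and were chosen after their values were seen. Pde3a, the phosphodiesterase that breaks down cyclic AMP in cardiac and smooth muscle, had 3903, 3917 and 3645 normalised reads in BCAA-free sham libraries and 2519, 2519 and 2555 in control sham libraries (0.59 ± 0.056, adjusted p = 0.00132). Adrb1, the beta-1 adrenergic receptor, had 753, 759 and 598 on the BCAA-free diet and 388, 476 and 491 on the control diet (0.64 ± 0.12, adjusted p = 0.0203), and Agtr1a, the angiotensin II receptor, 1337, 1382 and 1455 against 1205, 1066 and 1017 (0.35 ± 0.077, adjusted p = 0.0392). Ace, which makes angiotensin II, was lower, with 1611, 1642 and 1637 on the BCAA-free diet and 2393, 2346 and 2213 on the control diet (-0.51 ± 0.059, adjusted p = 0.00344). The cardiac transcription factors Gata6 (0.54 ± 0.075, adjusted p = 0.0052) and Hand2 (0.63 ± 0.15, adjusted p = 0.0478, but 0.0899 with DESeq2) were higher. Pde3a, Ace and Gata6 passed with any 1 library left out (adjusted p at most 0.0456), Adrb1 failed without BCAA-free sham 1 or 2, Agtr1a without any BCAA-free library or control sham 2, and Hand2 in each case but without control sham 1 (adjusted p = 0.0525 to 0.17).

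Genes of the cytoskeleton and of membrane scaffolds, also chosen after their values were seen, moved in both directions. Anxa2, annexin A2, had 1506, 1487 and 1465 normalised reads on the BCAA-free diet and 2083, 2181 and 1959 on the control diet (-0.48 ± 0.062, adjusted p = 0.00432), and its partner S100a10 had 771, 693 and 762 against 1087, 1097 and 1016 (-0.52 ± 0.075, adjusted p = 0.00607). Tpm4, a tropomyosin of non-muscle filaments (-0.64 ± 0.088, adjusted p = 0.0052), Tuba1a, an alpha tubulin (-0.51 ± 0.071, adjusted p = 0.0052), and Cfl1, cofilin (-0.37 ± 0.060, adjusted p = 0.0113), were lower too. Tpm2, a muscle tropomyosin (0.51 ± 0.082, adjusted p = 0.0102), Myl9, a smooth muscle myosin light chain (0.45 ± 0.077, adjusted p = 0.014), and the tubulins Tubb4b (0.39 ± 0.064, adjusted p = 0.0103) and Tuba8 (0.32 ± 0.060, adjusted p = 0.0225) were higher, and these 4 were lost without BCAA-free sham 2, all but Myl9 without BCAA-free sham 1 and all but Tpm2 without BCAA-free sham 3 (adjusted p = 0.0535 to 0.0912). The collagen receptors Itga1 (-0.78 ± 0.085, adjusted p = 0.00317) and Ddr2 (-0.37 ± 0.083, adjusted p = 0.0387) and the collagen uptake receptor Mrc2 (-0.53 ± 0.073, adjusted p = 0.0052) fell beside the collagen genes. With any 1 library left out, Anxa2, S100a10, Tpm4, Tuba1a, Itga1 and Mrc2 passed (adjusted p at most 0.0461), Cfl1 and Ddr2 failed without each BCAA-free library, and Ddr2 without control sham 1 or 2 (adjusted p = 0.0615 to 0.147). In the one-carbon and creatine paths, Gnmt, the glycine methyltransferase, was higher (156, 147 and 151 on the BCAA-free diet and 81.3, 66.2 and 89.3 on the control diet, adjusted p = 0.0161) and Gatm, the first enzyme of creatine synthesis, lower (34.6, 65.3 and 58.6 on the BCAA-free diet and 96.4, 128 and 105 on the control diet, adjusted p = 0.0433). Both failed without each BCAA-free library, and Gatm without control sham 1 or 2 (adjusted p = 0.0582 to 0.141).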
